A study of Mus musculus with 6 samples.

Results

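The genes described here code for the subunits, activators and assembly factors of the proteasome, the protease that breaks down ubiquitin-tagged proteins. They were taken as all probe sets of the array whose only annotated symbol starts with Psm, a letter from a to g and a digit, with Psmb8 and Psmb9 left out, and each gene was represented by its probe set of highest mean log2(signal + 1) over the 6 arrays. The pattern matched 100 probe sets of 47 genes, out of 18193 genes named by 1 symbol on the array. Of the 47 genes, 45 were bright enough to be tested among 13193 genes. Psma8 and Psmb11 were not. Psmc3ip, a factor of meiotic recombination, and Psme3ip1, which binds an activator, match the name pattern but code for no proteasome subunit. No probe set carried Psme2 as its only symbol.

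RNA was measured in pancreatic islets of wild-type male OF-1 mice, an outbred stock, at postnatal day 30. Their mothers were dosed from day 9 to day 16 of gestation with vehicle alone, or with bisphenol-A, a building block of plastics that can act on estrogen receptors, at 10 µg/kg/day (BPA10) or 100 µg/kg/day (BPA100). Each group had 2 arrays. Vehicle replicate 1 pooled 5 mice and vehicle replicate 2 was 1 mouse, BPA10 replicate 1 was 1 mouse and replicate 2 pooled 2 mice, and each BPA100 array was 1 mouse. The litters are not given, so p-values measure only the spread between these arrays.

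The proteasome has a barrel-shaped core of stacked alpha and beta rings, with the protease sites inside the beta rings. A regulatory particle on its ends recognises ubiquitin chains, and its ATPase subunits unfold the substrate and thread it into the core. Dedicated chaperones build both parts, and other activators can take the place of the regulatory particle. In beta cells, which make large amounts of proinsulin, the proteasome also removes misfolded protein exported from the endoplasmic reticulum.

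Proteasome genes were slightly lower on average in islets from both bisphenol-A groups, but no member passed the test at any dose. The median difference from vehicle was -0.08 on the log2 scale in BPA10 and -0.11 in BPA100, against 0.02 and -0.00 over all tested genes. In BPA10, 31 of 45 genes were lower and 14 higher, where 46.9% of all genes were lower. In BPA100, 37 were lower and 8 higher, where 50.1% of all genes were lower and 49.8% higher. After median centring, 71.1% of members were lower in BPA100, against 82.2% in the signals as deposited, and the share of all genes was 43.1% against 50.1%. Differences of single genes from vehicle lay between -0.40 and 0.39 in BPA10 and between -0.41 and 0.16 in BPA100. The BPA10 median was -0.06 without BPA10 replicate 1, where that of all genes was 0.01. The BPA100 median was -0.07 without vehicle replicate 2, where that of all genes was -0.03.

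**Figure D1:**
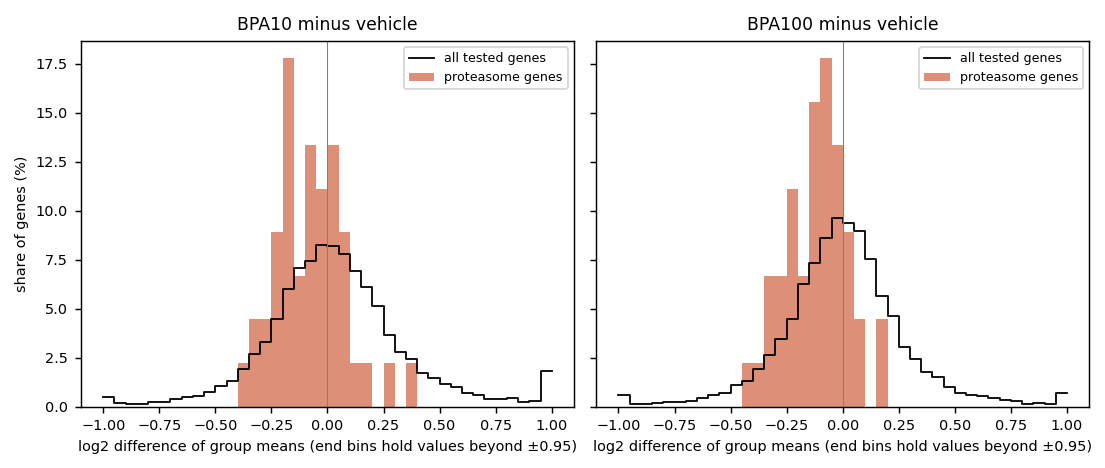
Share of genes (%) by log2 difference from vehicle in bins of 0.05, for the 45 tested proteasome genes (bars) and all 13193 tested genes (line), in BPA10 (left) and BPA100 (right). The bars lie mostly left of 0, with medians of -0.08 and -0.11, and stay within 0.41 of 0.

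In limma, 0 of 45 members had an adjusted p under 0.05 in any of the 4 comparisons or in the F test over the 3 groups. The smallest adjusted p was 0.649 in BPA10 against vehicle and 1 in BPA100 against vehicle. Over all 27022 probe sets, 0% passed in each of these. At an unadjusted p under 0.05, 3 members were lower and 0 higher in BPA10, where 2.3% of all genes were lower and 3.71% higher. In BPA100 the counts were also 3 and 0, where 1.78% were lower and 2.35% higher. These counts were sensitive to single arrays. The BPA10 count of lower genes was 0 without vehicle replicate 2 or without BPA10 replicate 1, and the BPA100 count was 1 without either vehicle array or either BPA100 array. Both counts were 0 after median centring. The comparisons use the same vehicle arrays, and all members share the same 6 arrays, so the counts are not independent of each other.

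The members varied little between arrays. The highest signal of a tested member was a median of 1.26 times its lowest over the 6 arrays, against 1.47 times over all tested genes. Psma6 had the smallest range (1.09 times) and Psmb10 the largest among the tested members (2.16 times). The median moderated standard error (SE) of a difference was 0.14 for members and 0.21 for all tested genes. The mean signal of a tested member ranged from 43.3 (Psmc3ip) to 2680 (Psmc2), with a median of 795, where the median of all tested genes was 170. Members were not compared with genes of like brightness, so the part of brightness in their smaller spread was not tested.

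The signals of treated and vehicle arrays often stood apart by small amounts. In BPA100, both treated arrays lay below both vehicle arrays for 19 of 45 members and above them for 0, where 15.3% of all genes were below and 16.3% above. In BPA10 this held for 16 members below and 5 above, where 16.2% of all genes were below and 19.3% above. All 4 treated arrays lay below both vehicle arrays for 10 members and above for 0, where 6.43% of all genes were below and 7.69% above. These 10 were Psma1, Psma3, Psma5 and Psma7 of the alpha ring, Psmb2 of the beta ring, the ATPase gene Psmc4, Psmd4, Psmd8 and Psmd13 of the regulatory particle, and the chaperone gene Psmd10. On the array means over all 45 members, relative to the vehicle mean, the vehicle arrays stood at -0.01 and 0.01, the BPA10 arrays at -0.09 and -0.07, and the BPA100 arrays at -0.10 and -0.14.

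**Figure D2:**
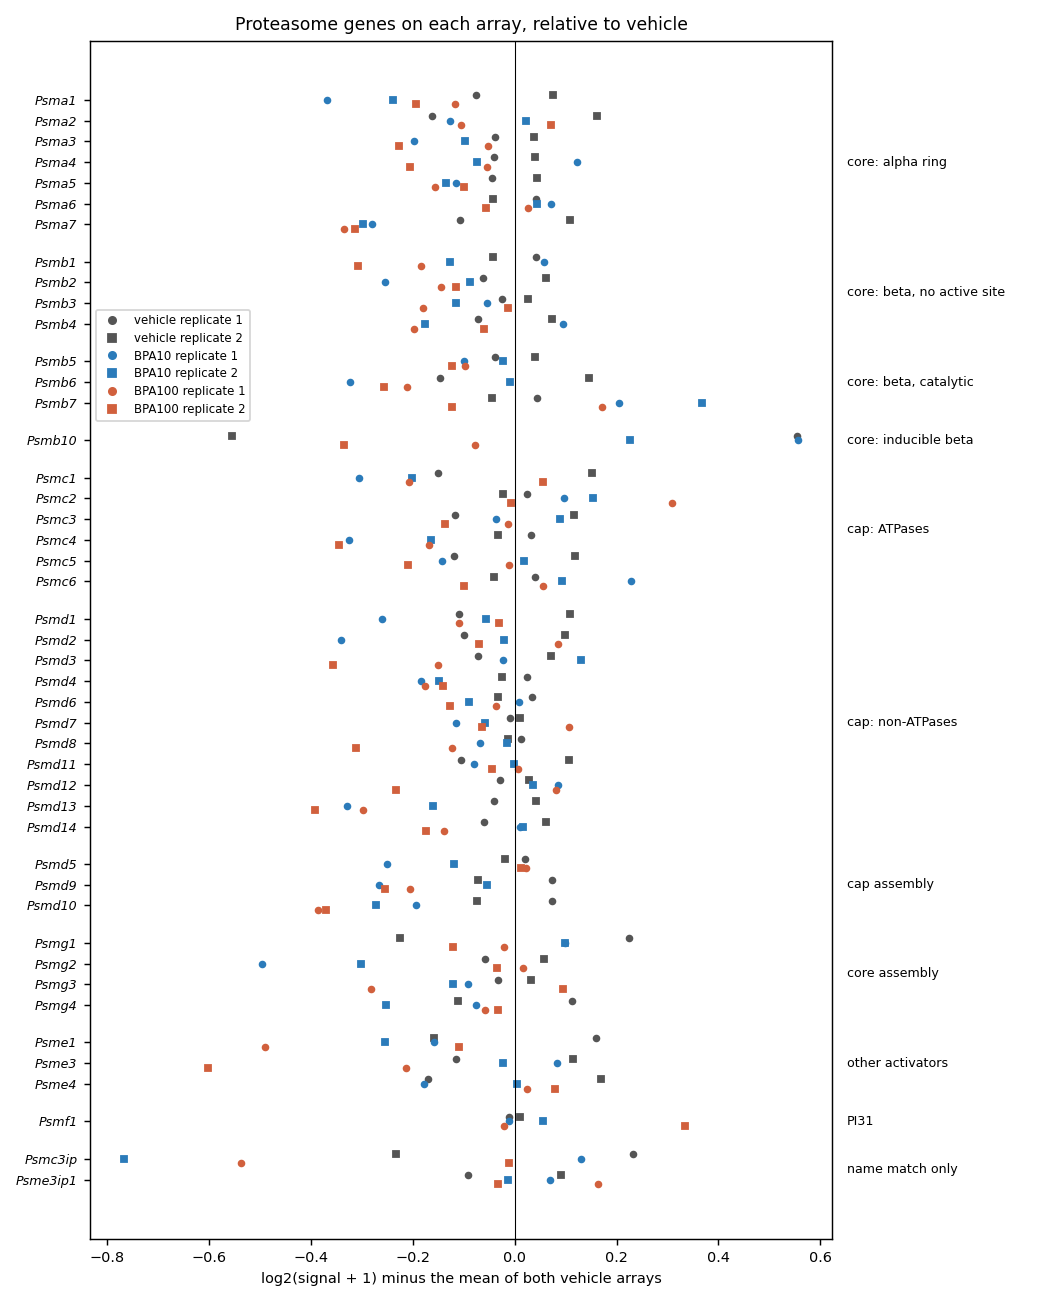
Each tested gene (rows, grouped by role) on each array, as log2(signal + 1) minus the mean of both vehicle arrays; colours are groups and symbols replicates. Most treated arrays lie within 0.4 of the vehicle mean, and for Psma7, Psmd10 and Psmd13 all 4 treated arrays lie left of both vehicle arrays.

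The alpha ring forms the gate through which substrates enter the core. Its 7 tested genes had a median difference of -0.13 in both dose groups, with 5 of 7 lower in BPA10 and 7 of 7 lower in BPA100. Psma7 had signals of 1367 and 1588 on the vehicle arrays, 1214 and 1199 on the BPA10 arrays, and 1168 and 1185 on the BPA100 arrays. The treated arrays lay close together, all below both vehicle arrays. The difference was -0.29 ± 0.13 (SE) in BPA10 (unadjusted p = 0.0487, adjusted p = 0.703) and -0.32 ± 0.13 in BPA100 (unadjusted p = 0.0307, adjusted p = 1). The other tested probe set of Psma7 gave -0.28 and -0.37.

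Psma1, of the same ring, gave signals of 1502 and 1667 on the vehicle arrays, 1226 and 1341 on the BPA10 arrays, and 1459 and 1384 on the BPA100 arrays. Its BPA10 arrays were the lowest of the 6 and did not overlap with either other group. The difference was -0.30 ± 0.12 in BPA10 (unadjusted p = 0.0386, adjusted p = 0.686) and -0.16 ± 0.12 in BPA100. Its 2 other tested probe sets were dim and lay between -0.31 and -0.26 in BPA10. Psma3 and Psma5 differed by -0.15 and -0.13 in BPA10, and by -0.14 and -0.13 in BPA100. Psma2, Psma4 and Psma6 differed by -0.05, 0.02 and 0.06 in BPA10, and by -0.02, -0.13 and -0.02 in BPA100. A second bright probe set of Psma6 measured 1662 and 1450, then 1438 and 1434, then 1304 and 1305 on the vehicle, BPA10 and BPA100 arrays. There all 4 treated arrays lay below vehicle, and the differences were -0.11 and -0.25.

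Of the beta ring, Psmb5, Psmb6 and Psmb7 carry the constitutive protease sites, of chymotrypsin-like, caspase-like and trypsin-like activity. Psmb5 measured 1017 and 1074 on the vehicle arrays, 975 and 1028 on the BPA10 arrays and 977 and 959 on the BPA100 arrays. The groups overlapped in BPA10, while both BPA100 arrays were below vehicle. Its difference was -0.06 in BPA10, with a 95% confidence interval from -0.33 to 0.21, and -0.11 in BPA100, with an interval from -0.38 to 0.16. Psmb6 measured 915 and 1120, then 809 and 1006, then 874 and 847 in the same order. It differed by -0.17 ± 0.16 and -0.23 ± 0.16, and its BPA10 arrays overlapped with vehicle. These values were -0.31 and -0.38 without vehicle replicate 1, and -0.020 and -0.089 without vehicle replicate 2. Psmb7 had a dimmer probe set, at 118 and 111 on the vehicle arrays, 132 and 148 on the BPA10 arrays and 129 and 105 on the BPA100 arrays. Both BPA10 arrays were above vehicle and the BPA100 arrays enclosed it. The differences were 0.29 ± 0.19 (adjusted p = 0.812) and 0.02 ± 0.19, and the second turned to -0.02 without vehicle replicate 2 and to -0.12 without BPA100 replicate 1.

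**Figure D3:**
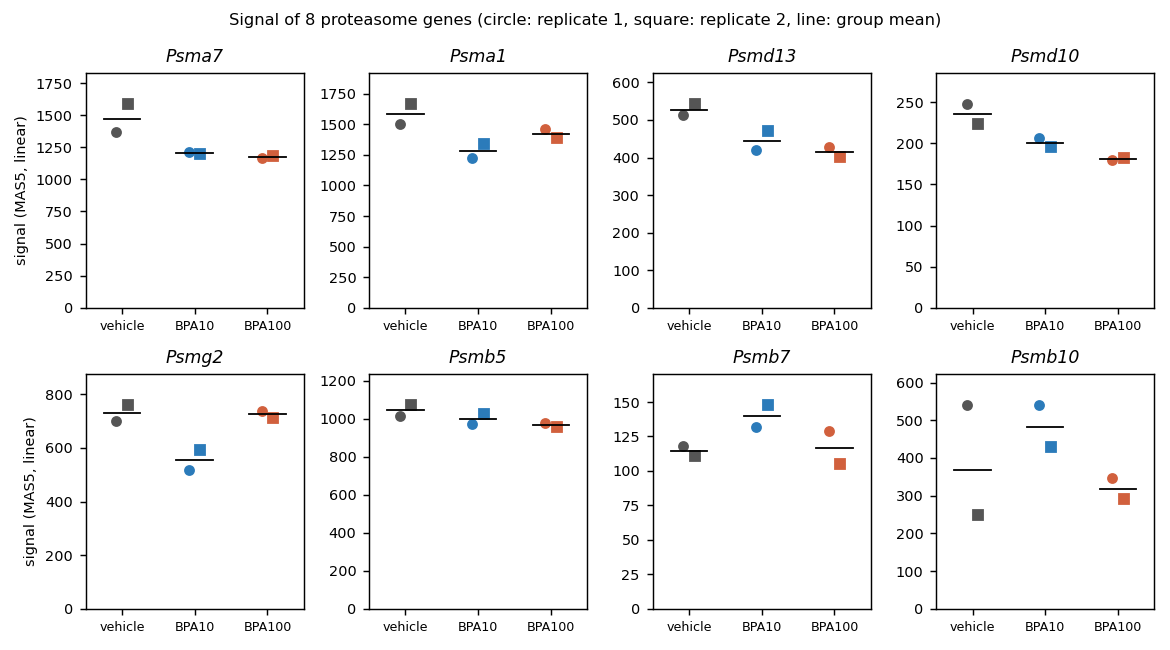
Signal (linear MAS5 scale, axes from 0) of 8 genes on the 6 arrays, with circles for replicate 1, squares for replicate 2 and a line at the mean of the group on the log2 scale. Psma7, Psmd13 and Psmd10 have all treated arrays below vehicle, Psmg2 is lower on the BPA10 arrays alone, and the vehicle arrays of Psmb10 are 540 and 250.

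Proteasome genes are known targets of the transcription factors Nfe2l1 and Nfe2l2, which bind the antioxidant response element. The promoters of members were therefore searched on both strands for its core, TGACNNNGC, and separately for the CCAAT box, CCAAT. The windows ran from 250 bases before to 50 bases after the start site in RefSeq's GRCm38.p6 annotation, and 39 of the 47 members had at least 1. The catalytic gene Psmb7 had none and was not searched. The antioxidant core was found in 14.3% of the members' windows and in 12.4% of all 32851 windows of this length. The CCAAT box was found in 35.7% and 37.4%. Both shares in members were near those of all promoters. The stretches below show the core in capitals in the promoters of both catalytic genes that have it and of the chaperone gene Psmd9, on the gene's own strand, at chr14:54618022-54618054 (minus strand), chr11:70525336-70525356 (plus strand) and chr5:123228147-123228179 (plus strand), each ending at or before the last base upstream of the start site.
Psmb5: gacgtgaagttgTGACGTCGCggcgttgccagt
Psmb6: gactaaagagagTGACGGAGC
Psmd9: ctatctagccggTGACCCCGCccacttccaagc
The core starts 47, 9 and 31 bases before the start site of Psmb5, Psmb6 and Psmd9. The other members with a match were Psmc6, Psmd12 and Psme4. Over these 6 genes, differences from vehicle lay between -0.17 (Psmb6) and 0.16 (Psmc6) in BPA10 and between -0.23 (Psmb6) and 0.05 (Psme4) in BPA100. The letters are a match of sequence only, and binding was not measured.

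The 4 beta subunits without a protease site, Psmb1, Psmb2, Psmb3 and Psmb4, were all lower in both groups. Psmb1 measured 1281 and 1209 on the vehicle arrays, 1295 and 1140 on the BPA10 arrays, and 1096 and 1006 on the BPA100 arrays. Only its BPA100 arrays stood apart from vehicle. It differed by -0.03 ± 0.13 in BPA10, where it turned to 0.01 without vehicle replicate 1 and to 0.06 without BPA10 replicate 2, and by -0.24 ± 0.13 in BPA100 (unadjusted p = 0.0899, adjusted p = 1). The other 3 genes differed by -0.17 to -0.04 in BPA10 and by -0.13 to -0.10 in BPA100. A second bright probe set of Psmb4 gave larger differences, -0.28 and -0.26, than the -0.04 and -0.13 of the chosen one.

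Psmb10, the interferon-inducible subunit that replaces the Psmb7 product in the immunoproteasome, was the most variable of the tested members. It measured 540 and 250 on the vehicle arrays, 541 and 430 on the BPA10 arrays, and 348 and 291 on the BPA100 arrays. The vehicle arrays nearly spanned the range of all the others. Its difference was 0.39 ± 0.32 in BPA10 (adjusted p = 0.84) and -0.21 ± 0.32 in BPA100. Without vehicle replicate 1 these were 0.95 and 0.35, and without vehicle replicate 2 they were -0.16 and -0.76. Both BPA100 arrays lay below both BPA10 arrays, a difference of -0.60 ± 0.32 (unadjusted p = 0.0945, adjusted p = 0.964).

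Psmb10 is abundant in cells of the immune system, so markers of macrophages are given beside it. On the means of 11 tested macrophage and myeloid genes, the vehicle arrays stood at 0.52 and -0.52, the BPA10 arrays at 0.28 and -0.22, and the BPA100 arrays at -0.49 and -0.54. The median difference of these 11 genes was 0.12 in BPA10, with 6 higher and 5 lower, and -0.18 in BPA100, with 3 higher and 8 lower. The summed signal of the 12 measured markers ranged from 1802 to 5090 in vehicle, 2345 to 3509 in BPA10 and 1890 to 2239 in BPA100, with 0 markers at a signal of 0. Lyz2, a lysozyme, measured 803 and 142, then 274 and 162, then 123 and 79, while Ctss, a protease of antigen-presenting cells, measured 738 and 426, then 813 and 602, then 458 and 922. The arrays with the highest Psmb10, vehicle replicate 1 and BPA10 replicate 1, were also those with the highest macrophage means. In that order, they also had the highest means of 15 stellate and fibroblast genes (0.16 and 0.69). The same held for 3 tested lymphocyte genes (0.46 and 1.13). The part of macrophages or of these other cells in the result was not tested. In whole islets, fewer cells of a type and less RNA per cell cannot be told apart.

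The 6 ATPases of the regulatory particle form the ring that unfolds substrates. They had a median difference of -0.02 in BPA10, with 3 higher and 3 lower, and of -0.08 in BPA100, with 5 of 6 lower. Psmc4 measured 1703 and 1627 on the vehicle arrays, 1329 and 1486 on the BPA10 arrays, and 1482 and 1310 on the BPA100 arrays. All 4 treated arrays were below both vehicle arrays. The differences were -0.24 ± 0.13 (unadjusted p = 0.0901, adjusted p = 0.751) and -0.26 ± 0.13 (unadjusted p = 0.0774, adjusted p = 1), and its other tested probe set gave -0.37 and -0.09. Psmc2 differed the other way, by 0.12 and 0.15, with -0.02 and 0.11 on its other tested probe set. Psmc6 differed by 0.16 and -0.02. Its 2 other tested probe sets gave -0.21 and 0.08 in BPA10, and 0.05 and 0.14 in BPA100. Psmc1 differed by -0.25 and -0.08, while Psmc3 and Psmc5 lay between -0.11 and 0.03 in both groups.

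The 11 non-ATPase subunits of the regulatory particle include the scaffold genes Psmd1 and Psmd2, the ubiquitin receptor gene Psmd4 and the deubiquitinase gene Psmd14. Of these 11, 8 were lower in BPA10 (median -0.04) and 9 in BPA100 (median -0.08). Psmd13, a lid subunit, measured 513 and 543 on the vehicle arrays, 420 and 472 on the BPA10 arrays, and 429 and 402 on the BPA100 arrays. No treated array reached the lower vehicle array. It differed by -0.24 ± 0.14 in BPA10 (unadjusted p = 0.11, adjusted p = 0.774) and by -0.35 ± 0.14 in BPA100 (unadjusted p = 0.0348, adjusted p = 1). Its 3 other tested probe sets disagreed in BPA100, from -0.64 to 0.21, and the brightest of them gave -0.27.

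Psmd4 measured 599 and 579, then 518 and 531, then 521 and 534 on the vehicle, BPA10 and BPA100 arrays. Its treated arrays lay between 518 and 534, below vehicle, and the differences were -0.17 ± 0.13 and -0.16 ± 0.13, with -0.29 in both groups on its other bright probe set. Psmd14 differed by 0.01 and -0.16, Psmd1 by -0.16 and -0.07, and Psmd2 by -0.18 and 0.01. Psmd3 and Psmd8, both lid subunits, were lower mainly in BPA100, by -0.25 and -0.22, against 0.05 and -0.04 in BPA10. Psmd6, Psmd7, Psmd11 and Psmd12 lay between -0.09 and 0.06 in both groups, although the other tested probe sets of Psmd11 ranged from -0.38 to 0.17.

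Psmd5, Psmd9 and Psmd10 code for chaperones that assemble the ATPase ring and are absent from the finished particle. Psmd10, also known as gankyrin, measured 248 and 224 on the vehicle arrays, 206 and 195 on the BPA10 arrays, and 180 and 182 on the BPA100 arrays. The 3 groups did not overlap, with BPA100 lowest. It differed by -0.23 ± 0.16 in BPA10 (unadjusted p = 0.173, adjusted p = 0.81) and by -0.38 ± 0.16 in BPA100 (unadjusted p = 0.0401, adjusted p = 1), or 0.77 times the vehicle level. BPA100 against BPA10 gave -0.15 ± 0.16. Psmd9 differed by -0.16 and -0.23, and Psmd5 by -0.18 and 0.02.

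The chaperones of the core are coded by Psmg1 to Psmg4. Psmg2, which pairs with the Psmg1 product to build the alpha ring, had the smallest p of all members in BPA10 and in the F test. It measured 702 and 761 on the vehicle arrays, 518 and 593 on the BPA10 arrays, and 739 and 713 on the BPA100 arrays. The BPA10 arrays were lower than the other 4, which overlapped. The difference was -0.40 ± 0.13 in BPA10 (unadjusted p = 0.0165, adjusted p = 0.649), and -0.01 ± 0.13 in BPA100. The F test gave an unadjusted p of 0.0261 (adjusted p = 0.934), and Psmg2 was the only member of 45 under 0.05 there, where 4.43% of all genes were. A second bright probe set of Psmg2 measured 601 and 562, then 549 and 566, then 566 and 513, a BPA10 difference of -0.06, and a dim one gave 0.52, so BPA10 arrays wholly below vehicle were seen on 1 of 3 probe sets. Psmg1, Psmg3 and Psmg4 differed by 0.10, -0.11 and -0.16 in BPA10 and by -0.07, -0.09 and -0.05 in BPA100.

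Among the alternative activators, Psme1 codes for a subunit of the interferon-inducible ring that helps to produce peptides for antigen presentation. It measured 818 and 656 on the vehicle arrays, 656 and 614 on the BPA10 arrays, and 521 and 679 on the BPA100 arrays. The groups overlapped. Its differences were -0.21 ± 0.17 and -0.30 ± 0.17 (adjusted p = 0.847 and 1). The BPA10 difference was -0.048 without vehicle replicate 1 and 0 when only arrays of 1 mouse were used, and the BPA100 one was -0.11 without BPA100 replicate 1 and -0.14 without vehicle replicate 1. Psme3, the nuclear activator of the same family, measured 121 and 142, then 139 and 129, then 113 and 86, with the BPA100 arrays lowest. It differed by 0.03 ± 0.21 in BPA10, where it turned to -0.08 without vehicle replicate 1 and to -0.02 without BPA10 replicate 1, and by -0.41 ± 0.21 in BPA100 (unadjusted p = 0.0861, adjusted p = 1), but its other tested probe set, which was dim, gave 0.16 in BPA100. Psme4, an activator of nuclear proteasomes, differed by -0.09 and 0.05. Its 2 other tested probe sets gave -0.31 and -0.005 in BPA10, and -0.17 and 0.05 in BPA100. Psmf1, a proteasome-binding inhibitor in vitro, measured 274 and 278, then 274 and 287, then 272 and 348. It differed by 0.02 ± 0.16 and 0.16 ± 0.16, and the second turned to -0.02 without BPA100 replicate 2. The 3 other tested probe sets of Psmf1 lay between -0.27 and 0.17 in BPA10 and between -0.18 and 0.01 in BPA100.

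Genes of the interferon response were set beside Psmb10 and Psme1 because interferon induces both. Of 25 tested, 18 were higher in BPA10 and 16 in BPA100, where 53% and 49.8% of all genes were higher. The median differences were 0.23 and 0.22, against 0.02 and -0.00 over all tested genes. At an unadjusted p under 0.05, 5 were higher in each group, and 0 were lower in BPA10 and 1 in BPA100. Over all genes, 3.71% were higher and 2.3% lower in BPA10, and 2.35% and 1.78% in BPA100. Rsad2, an antiviral enzyme, measured 93 and 111 in vehicle, 411 and 221 in BPA10, and 232 and 219 in BPA100. It differed by 1.56 ± 0.27 in BPA10 (adjusted p = 0.315). Irf7 had the smallest p of the list in BPA100 and was lower there. It measured 75 and 48 in vehicle, 71 and 69 in BPA10, and 23 and 25 in BPA100. Its BPA100 difference was -1.29 ± 0.30 (adjusted p = 0.953). The differences of Psme1 were below 0 in both groups and those of Psmb10 had opposite signs, but for both genes the treated arrays overlapped with vehicle.

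Between the doses, 26 of 45 members were lower in BPA100 than in BPA10 and 19 higher, with a median of -0.04, where 52.9% of all genes were lower and the median of all genes was -0.02. At an unadjusted p under 0.05, 1 member was higher, Psmg2, and 0 were lower, where 1.66% of all genes were higher and 2.65% lower. Both BPA100 arrays lay below both BPA10 arrays for 12 members and above them for 5, where 17% and 13.4% of all genes did. Psmg2 differed by 0.39 ± 0.13 (unadjusted p = 0.0185, adjusted p = 0.964), and its unadjusted p was not under 0.05 without BPA10 replicate 1 or BPA100 replicate 1. Psmd5 differed by 0.20 ± 0.13 and Psmd2 by 0.19 ± 0.15. In the other direction, Psme3 differed by -0.44 ± 0.21, Psmd3 by -0.31 ± 0.16 and Psmb10 by -0.60 ± 0.32. For Psmd3 both BPA100 arrays, at 269 and 233, lay below the BPA10 arrays at 294 and 327.

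For the mean of both doses against vehicle, 37 of 45 members were lower and 8 higher, where 48.5% of all genes were lower and 51.5% higher. The median was -0.09, against 0.01 over all genes, and -0.14 with only arrays of 1 mouse. At an unadjusted p under 0.05, 2 members were lower and 0 higher, where 1.92% of all genes were lower and 3.08% higher. They were Psma7 (unadjusted p = 0.0212, adjusted p = 0.823) and Psmd13 (unadjusted p = 0.0366, adjusted p = 0.843). Without vehicle replicate 1 or BPA10 replicate 1 the count of lower genes was 1, and without vehicle replicate 2 it was 0.

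Genes that work with the proteasome were centred near 0. The 23 tested partners included the deubiquitinase genes Usp14 and Uchl5, ubiquilin shuttle genes, the unfoldase gene Vcp and the maturation factor Pomp. Of these 23, 12 were lower in BPA10 and 14 in BPA100, where 46.9% and 50.1% of all genes were lower. Their medians were -0.01 and -0.03, against 0.02 and -0.00 over all tested genes. None of the 23 had an unadjusted p under 0.05 in limma in either comparison. The smallest p belonged to Ngly1 (0.29 ± 0.15) and Usp14 (-0.27 ± 0.15) in BPA10, and to Ubqln2 (0.26 ± 0.11) and Nploc4 (-0.36 ± 0.22) in BPA100. This list also holds Sem1, a subunit of the regulatory particle whose symbol the name pattern missed (-0.01 in BPA10 and -0.14 in BPA100). The difference between this list and the members was not tested. Of 11 heat shock genes, which respond to misfolded protein, 3 were lower at an unadjusted p under 0.05 in each group and 1 was higher in BPA10. Over all genes, 2.3% were lower and 3.71% higher in BPA10, and 1.78% and 2.35% in BPA100. The heat shock list went both ways, with 6 higher and 5 lower in BPA10 (median 0.12) and 5 higher and 6 lower in BPA100 (median -0.04). Its smallest p in BPA100 was that of Hspa1b, which measured 535 and 595 on the vehicle arrays, 368 and 233 on the BPA10 arrays and 157 and 155 on the BPA100 arrays (-1.85 ± 0.22 in BPA100, adjusted p = 0.2).

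**Figure D4:**
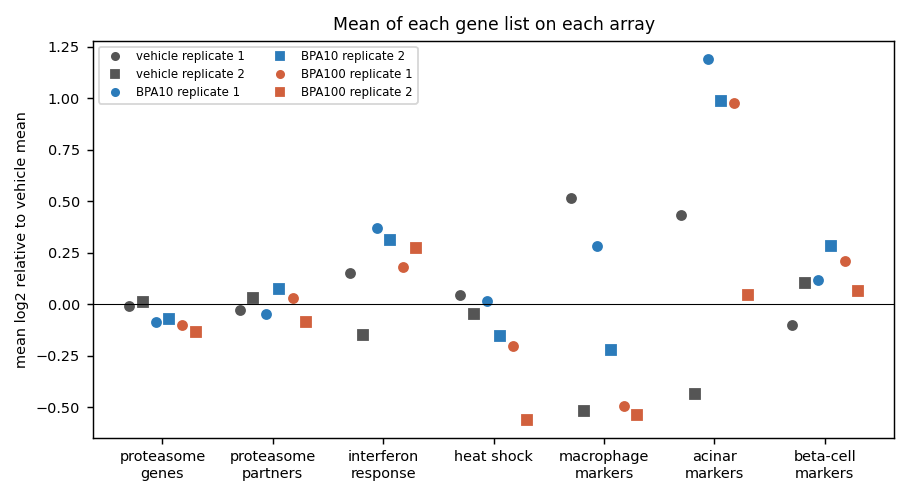
Mean log2 difference from the vehicle mean over each gene list (columns) on each array; colours are groups and symbols replicates. Proteasome genes stay between -0.14 and 0.01, while acinar markers range from -0.43 to 1.19 and macrophage markers from -0.54 to 0.52.

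The arrays were alike in overall signal, with medians of 33 to 40, and pairs of arrays correlated at 0.968 within each group and at 0.945 to 0.975 between groups over tested probe sets, so several pairs of different groups were as alike as pairs of 1 group. Markers of beta, alpha and delta or PP cells were bright, with summed signals over 9 beta-cell genes of 35530 to 38436 in vehicle, 43082 to 44662 in BPA10 and 39456 to 44436 in BPA100. Exocrine acinar markers were also present, and highest on the BPA10 arrays and BPA100 replicate 1. The sum over 16 genes was 56560 to 87441 in vehicle, 112681 to 121317 in BPA10 and 72977 to 116444 in BPA100, with 0 genes at a signal of 0. Of 15 tested acinar genes, 13 were higher in BPA10 and 2 in BPA100 at an unadjusted p under 0.05. The shares of all genes higher at that threshold were 3.71% and 2.35%. Each array was scaled to the same trimmed mean, so a member's signal is relative to the rest of its array. The part of these markers in the members' differences was not tested. The ratio of the 3' to the 5' control probe set of Gapdh was 0.66 to 0.77 in vehicle, 0.84 to 0.89 in BPA10 and 0.69 to 0.77 in BPA100, and that of Actb was 1.62 to 1.72 over all arrays.

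The remaining genes matched by name gave little signal or were no subunits. Psma8, an alpha subunit of the testis, measured 10 to 30, and Psmb11, the beta subunit of the thymic cortex, measured 3 to 24 over the 6 arrays. Neither was tested. Psmc3ip measured 57 and 41 on the vehicle arrays, 53 and 28 on the BPA10 arrays, and 33 and 48 on the BPA100 arrays, and the groups overlapped (-0.32 ± 0.39 and -0.27 ± 0.39). Its BPA10 difference turned to 0.13 without BPA10 replicate 2. Psme3ip1 differed by 0.03 and 0.07. Across the members, 20 had other tested probe sets, and 23 of these 33 probe sets had the sign of the gene's chosen one in BPA10, and 23 in BPA100.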

How the data were processed

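Islet RNA was amplified in 2 rounds to biotin-labelled cRNA for Affymetrix arrays, per the labels. The authors deposited linear MAS5 intensities, 1 per probe set and array (MAS5 is named in the submitters' processing notes; no version is given in the sources used here). They are whole numbers, scaled so that the mean without the lowest and highest 2% is 150.0 on each array. The array holds 45101 probe sets, 64 of them controls. Symbols came from the platform annotation, and all 47 members matched RefSeq (GRCm38.p6).

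Values were taken as log2(signal + 1), which understates changes of dim probe sets. The 27022 probe sets at or above the 40th percentile of mean log2 value were fitted with limma 3.58.1 in R 4.3.3 (lmFit, eBayes with an intensity trend) on 6 arrays with 3 group means, 3 residual and 5.4 prior degrees of freedom. The 2-sided p-values were adjusted by Benjamini-Hochberg over all these probe sets, with a threshold of 0.05. The fit was tested on simulated data. Precision is limited by the array number, and permuting labels of 2 arrays against 2 reaches no p under 0.333. Percentages over all genes use each gene's brightest tested probe set.

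The members and gene lists were chosen with earlier results of these data known. Named against vehicle were members with an unadjusted p under 0.05 (up to 8 each way), Psmb5, Psmb6, Psmb7, Psmb10, Psme1, Psme2 (in the rule, but found to be no member) and the member of each role with the smallest F test p; against BPA10, the 3 smallest p each way; and 2 genes of each other list, given where a result turns on them. Other members are given by role. Lists of duct, stellate, endothelial and lymphocyte markers had median differences of 0.20, 0.45, -0.06 and 0.86 in BPA10. Those in BPA100 were -0.31, -0.41, -0.06 and -0.01. Only 3 lymphocyte genes, all dim, were tested. Their BPA10 differences were 0.86 ± 0.70 (Cd79a), 1.20 ± 0.70 (Ms4a1) and -0.03 ± 0.39 (Cd8a), and for each the BPA10 arrays overlapped with vehicle. Beta, alpha and delta or PP cell lists had medians of 0.22, 0.31 and 0.25 in BPA10, then 0.12, 0.17 and 0.16 in BPA100. None of 2 red cell genes was bright enough to test. Alternatives covered scaling, pseudocount, filter, trend, probe set choice, samples and pairing.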

Additional observations from a re-analysis of the deposited data

How the results depend on the processing

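No member passed an adjusted p of 0.05 under any of the 17 alternatives tried (lowest adjusted p 0.342), and the median over members stayed below 0 in each comparison with vehicle. Some alternatives could not move that median: no intensity trend, only the groups compared and the replicate block. Nor could leaving out an array of a group not compared. For BPA10 that median was -0.12 with only arrays of 1 mouse, which left 1 array per group, and -0.10 to -0.06 when 1 array was left out. For BPA100 it was -0.073 after median centring, -0.15 with only arrays of 1 mouse and -0.15 to -0.071 when 1 array was left out. In BPA100 the differences with only arrays of 1 mouse are the same as those without vehicle replicate 1, so these are not separate checks. For both doses the median over members was -0.14 with only arrays of 1 mouse and -0.13 to -0.065 when 1 array was left out. Quantile normalization gave -0.08 and -0.11, and leaving out Psmc3ip and Psme3ip1, chosen after seeing the data, changed neither median. Where an arm was left with 1 array, it was assumed to vary like the other groups. The members' median minus that of all genes was -0.103 in BPA10 and -0.109 in BPA100 with all arrays. Without vehicle replicate 2, an array of 1 mouse, it was -0.066 and -0.045.

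The replicate number as a block left 0 members passing, while 7 of all probe sets passed in BPA100 against 0 without it. Such a block could not change the medians of -0.08 and -0.11, because each group has both replicate numbers. Replicate numbers shared deviations with correlations of 0.08 to 0.20, under 0.1 for BPA10 with BPA100, so they were not taken as pairs. Without vehicle replicate 1, 9 of all probe sets passed in BPA10.

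Signs of some single genes turned, among them Psmg2 and Psmb10, which had the lowest and highest differences of all tested members in BPA10. With the mean of all probe sets, Psmg2, Psmf1 and Psmc3ip gave 0.020, -0.012 and 0.014 in BPA10, and Psmg2 and Psmf1 0.078 and -0.034 in BPA100. With only arrays of 1 mouse, Psme3, Psmb1, Psmf1 and Psmc3ip gave -0.031, 0.10, -0.021 and 0.36 in BPA10, and Psmb10 0.35 in BPA100. Median centring gave Psmg2 0.027 in BPA100. Leaving out 1 array gave, in BPA10, -0.084 to 0.15 for Psme3, -0.13 to 0.057 for Psmb1, -0.16 to 0.95 for Psmb10, -0.010 to 0.056 for Psmf1 and -0.77 to 0.13 for Psmc3ip. In BPA100 it gave -0.76 to 0.35 for Psmb10, -0.12 to 0.17 for Psmb7, -0.068 to 0.048 for Psmg2 and -0.021 to 0.33 for Psmf1. The cause was not tested.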
